A study of Mus musculus with 11 samples.

Results

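The genes described here are the mouse Zfp genes named by a number alone that had at least 200 raw counts in each of 9 libraries of immunopurified RNA. They were 211 of the 336 Zfp entries of that form in the count files, and of 32531 genes in all. The genes were chosen by their measured counts, so they are well counted in every immunopurified library by construction, and 9309 genes of any name passed the same minimum. Just inside it stood Zfp383 and Zfp777, each with 201 counts in its lowest library, and Zfp28 with 203. Just outside stood Zfp661 with 199, Zfp212 with 198 and Zfp324 with 194.

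A zinc finger of the C2H2 type is a short fold held by a zinc ion between cysteine and histidine side chains, and each finger can read a few bases of DNA, so that a row of fingers reads a longer site. Many Zfp proteins also carry a KRAB box, which recruits the corepressor TRIM28 (KAP1) and, through it, the histone methyltransferase SETDB1, heterochromatin proteins and DNA methylation, and many of the KRAB class silence transposable elements. Zfp proteins without a KRAB box include transcription activators, RNA-binding proteins, ubiquitin ligases and factors that act on ribosomes.

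The samples came from adult Glt25d2-EGFP/Rpl10a mice of line DU9, a genotype that all groups shared, in a study of short-access intravenous self-administration. The line makes the ribosomal protein Rpl10a fused to EGFP under the regulatory DNA of Glt25d2 (now Colgalt2), known for activity in layer 5 pyramidal neurons, and the tagged ribosomes are recovered with an EGFP antibody together with the RNA they carry (translating ribosome affinity purification, TRAP). Immunopurified (IP) RNA was sequenced from mice with saline self-administration, mice with cocaine self-administration and yoked controls, with 3 libraries each numbered 1, 2 and 3. Added to these were 1 library of input RNA, taken before the pull-down, from the saline group and 1 library of unbound RNA, left after it, from the cocaine group. What yoked animals received, and whether a library is 1 animal or a pool, is unknown from the labels, so p-values measure only the spread between these libraries. By the tissue label the samples were cerebral cortex, but the extraction text names striatum. The summed level of 14 layer 5 markers ran from 748 to 1641 CPM (counts scaled to a common library size) over the IP libraries. For 8 striatal projection neuron markers it was 260 to 410 CPM. These sums are over lists of unlike size and make-up, so they do not decide between cortex and striatum. Each treatment's IP libraries were run on their own lane, so lane and treatment cannot be told apart. Input was on lane 7 and unbound on lane 1, away from the IP libraries, so lane and fraction cannot be told apart either.

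Of the 211 genes, 95 held a KRAB box pattern in the translated coding sequence and 116 did not. The number of C2H2 fingers ran from 0 to 30, with a median of 12 in the KRAB class and 7 in the other. Zfp236 had the highest number, 30, followed by Zfp423 with 27. Zfp326, Zfp330, Zfp365, Zfp703 and Zfp839 had none that matched the pattern. Chromosome 7 held 56 of the genes, chromosome 17 held 21 and chromosome 8 held 19. In all, 121 lay within 250000 bases of another Zfp entry. The run with the most of the 211, on chromosome 7 of GRCm38 (29768552 to 30169750), held 12 of the genes among 15 Zfp entries, from Zfp84 to Zfp146. A run on chromosome 17 (32765496 to 33631779) held 10, from Zfp871 to Zfp414.

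Short promoter stretches are shown because many of the genes shared a sequence feature that the count minimum did not use. RefSeq promoter windows (GRCm38.p6, 250 bases before to 50 bases after a transcript start) were matched for 172 of the 211 genes, in 209 windows. Of the 95 words of 8 letters that stood, on either strand, in at least 15 of these windows, ACTACATT had the highest share relative to all windows. It stood in 25 of the 209 (11.96%), against 382 of all 32851 windows (1.16%). The word was picked for this ratio, which is therefore a description. Among windows of the KRAB class 22.1% held it, and among windows of the other genes 3.51%. The letters ACTACA followed by TCCC a few bases on are known as the front of a promoter element bound by the zinc finger protein ZNF143 and by THAP11, and the mouse counterpart of ZNF143, Zfp143, was itself among the 211 at 9.50 CPM over the IP libraries. A match of letters is a description and not a binding site. Below, the first 6 genes are neighbours in the chromosome 7 run, and Zfp458 and Zfp444 are among those furthest from the unbound RNA described last. The 8 letters are in capitals, on the strand of the gene, as ACTACATT or as its reverse complement.
Zfp84, chr7:29768522-29768551, + strand: gccttctgggaAATGTAGTccactataaat
Zfp790, chr7:29815961-29815990, + strand: gtattctgggaAATGTAGTtcaaggccgtg
Zfp940, chr7:29853663-29853692, - strand: gactcctgggaAATGTAGTtcaagacttgg
Zfp383, chr7:29908465-29908494, + strand: tccaatcgcggACTACATTtcccagaagcg
Zfp74, chr7:29954094-29954123, - strand: gggctctgggaAATGTAGTtcaaagcaaga
Zfp260, chr7:30095040-30095069, + strand: gacttctgggaAATGTAGTtcacagttaaa
Zfp458, chr13:67269150-67269179, - strand: gacttgtgggaAATGTAGTcccaacaatta
Zfp444, chr7:6172271-6172300, + strand: acactttaagaAATGTAGTtttctggctag
The match began 19 bases before the start in Zfp84, 25 in Zfp260, 33 in Zfp940 and 231 in Zfp444. Many neighbouring Zfp genes arose by duplication and share sequence, so their windows are not independent. Of other letters searched on both strands, the ETS letters CCGGAAG stood in 19.6% of the 209 windows against 8.86% of all. The YY1 letters AAGATGGC stood in 8.61% against 2.75%, and the cAMP response element TGACGTCA in 2.87% against 1.79%. The TATA letters TATAAA were rarer, at 7.18% against 13.6%. The windows of the 211 genes had a median GC content of 57.3%, against 52.7% for all windows.

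Most of the genes were present at low levels. The mean over the IP libraries ran from 6.76 to 923 CPM with a median of 19.7 CPM; 33 genes stood below 10 CPM and 16 at 100 CPM or more. The highest were Zfp871, a KRAB gene with 15 fingers, at 923 CPM, and Zfp365, which binds the neuronal protein DISC1, at 787 CPM. Next came Zfp106, an RNA-binding protein needed by motor neurons, at 638 CPM, Zfp704 at 319 CPM, and Zfp148, which binds GC-rich promoter sites, at 231 CPM. Per length of exon the order changed. Zfp365 led at 151 CPM per kb, ahead of Zfp871 at 83.0 and Zfp106 at 61.2, where the median gene stood at 3.90 CPM per kb. The 5 genes highest in CPM together held 17.9% to 38.2% of the summed level of the 211 over the IP libraries. Of the 211 genes, 66 share exon bases with another gene, 56 with one on the opposite strand and 13 with one on the same strand. Whether strand was used in counting is not stated. Reads of the 56 in shared bases thus cannot be told apart from those of their opposite-strand partners. The 66 include Zfp106, Zfp704, Zfp26, Zfp367, Zfp286 and Zfp428.

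The IP libraries did not carry these genes equally, and the replicate number, not the treatment, marked the difference. The 211 genes held 0.662%, 0.558% and 0.671% of gene counts in the saline, cocaine and yoked libraries numbered 1. In the 6 libraries numbered 2 or 3 they held 0.905% to 1.16%, in input 1.02% and in unbound 0.874%. All 3 libraries numbered 1 lay below the other 6, and below input and unbound. Without the 5 highest genes the summed level was 4740 to 5460 CPM in the libraries numbered 1 and 6197 to 7308 CPM in the others, so the groups did not overlap there either. The cocaine library numbered 1 was the lowest of all 11 for 97 genes. The yoked library numbered 3 was the highest for 54 and the unbound library for 48.

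**Figure D1:**
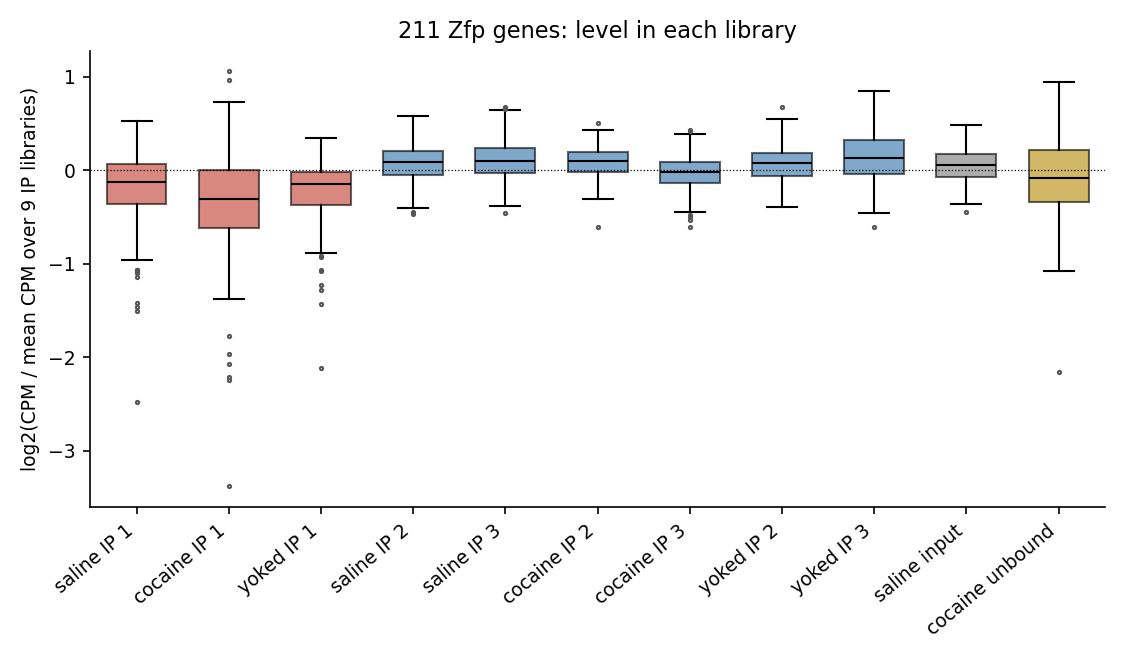
Level of the 211 Zfp genes in each of the 11 libraries, as log2 of CPM over the gene's mean CPM in the IP libraries (0.5 added to both); boxes span the quartiles with the median line, whiskers reach 1.5 times the box, and points lie beyond. The libraries numbered 1 (red) have medians of -0.13 (saline), -0.30 (cocaine) and -0.15 (yoked), and the libraries numbered 2 or 3 (blue) lie between -0.02 and 0.13.

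Number 1 was compared with the mean of numbers 2 and 3 across the 9 IP libraries, with treatment in the model. Each number had its own index sequence in the labels, shared by the 3 treatments, so index and number cannot be told apart. By edgeR's quasi-likelihood test at a Benjamini-Hochberg adjusted p below 0.05 over 16417 genes, 93 of the 211 genes fell in number 1 and 15 rose. Of all genes tested, 27.7% were called lower and 27.6% higher. Among the 9309 genes that met the same count minimum, 26.5% were called lower and 38.2% higher, so the share of lower calls among the Zfp genes, 44.1%, was above both backgrounds and that of higher calls, 7.11%, below both. Their median log2 fold change was -0.26 (quartiles -0.62 and 0.04), against 0.01 for all genes tested and 0.13 for the 9309. The libraries numbered 1 lay below all 6 others for 87 of the genes and above them for 13, where 23.9% and 22.5% of genes tested did so. The rule itself bears on this comparison, since a gene that falls below 200 counts in 1 library is no longer in the group. Zfp568, a KRAB gene at a mean of 12.5 CPM, was left out in this way with 50 counts in its lowest library. Of 108 tested Zfp genes under the minimum, 39 were lower and 8 higher, with a median of -0.22. Of these 108, 11 had 200 counts or more in all 6 libraries numbered 2 or 3, and 14 in all 3 numbered 1.

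The direction was the same in each treatment. Number 1 minus the mean of numbers 2 and 3 had a median over the 211 genes of -0.18 (log2) in saline, -0.34 in cocaine and -0.22 in yoked libraries. The 9309 genes had medians of 0.14, 0.08 and 0.12. The Zfp genes at least 2-fold lower in number 1 were 20 in saline, 33 in cocaine and 18 in yoked libraries, and those at least 2-fold higher 0, 2 and 0. The matching counts of other genes were not taken, so these counts are a description. With the treatments combined, 10.9% of the Zfp genes were called and at least 2-fold lower. That share was 13.9% of all genes tested and 7.42% of the 9309. Over the 6 libraries numbered 2 or 3, the coefficient of variation of the Zfp genes had a median of 9.51% and a maximum of 25.5%. It was not taken for genes of other names, so it is a description.

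Zfp704 fell most. Its levels in the libraries numbered 1 were 57.0, 30.3 and 73.3 CPM (saline, cocaine, yoked). Those numbered 2 and 3 had 475 and 501 CPM in saline, 431 and 252 in cocaine, and 510 and 539 in yoked. The groups were far apart, and the lowest of the 6, the cocaine library numbered 3, was still over 3 times the highest of the libraries numbered 1. The log2 fold change was -3.13 ± 0.17 (SE; edgeR adjusted p = 8.04e-09). Input, at 434 CPM, lay within the range of the libraries numbered 2 and 3, and unbound, at 70.9 CPM, within that of the libraries numbered 1.

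Zfp871, the most abundant of the genes, had 336, 195 and 342 CPM in the saline, cocaine and yoked libraries numbered 1. In numbers 2 and 3 it had 1146 and 1474 CPM in saline, 1115 and 751 in cocaine, and 1286 and 1662 in yoked. Here too the cocaine libraries numbered 1 and 3 were the lowest of their sets, with no overlap between the sets. The log2 fold change was -2.11 ± 0.15 (edgeR adjusted p = 8.92e-08).

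Zfp106 showed the same order, with 238, 138 and 272 CPM in number 1 and 558 to 995 CPM in the other IP libraries, a log2 fold change of -2.01 ± 0.14. Zfp609, a regulator tied to cohesin loading in migrating cortical neurons, had 49.5, 33.2 and 58.01 CPM against 144 to 216 CPM, a log2 fold change of -2.03 ± 0.13. Zfp866, a KRAB gene that shares 421 exon bases with a same-strand gene, had 16.3, 9.81 and 16.2 CPM against 31.1 to 55.2 CPM (-1.70 ± 0.15). Zfp462, a chromatin regulator, had 40.8, 21.7 and 46.6 CPM against 97.9 to 124 CPM (-1.65 ± 0.16). In all 4 the libraries did not overlap and the cocaine library numbered 1 was the lowest. Of the 211 genes, 23 (10.9%) fell by at least 2-fold, where 13.9% of all genes tested and 7.42% of the 9309 did; none rose by that much, where 3.09% and 2.43% did.

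The genes that rose did so by less. Zfp428 had 14.95, 25.9 and 12.7 CPM in number 1 and 7.82 to 12.2 CPM in the other IP libraries, a log2 fold change of 0.89 ± 0.18. Zfp637 had 20.6, 30.8 and 15.3 CPM against 10.8 to 13.4 CPM (0.83 ± 0.15). Zfp622, which acts in the maturation of the large ribosomal subunit, had 45.3, 60.2 and 46.0 CPM against 25.9 to 34.1 CPM (0.79 ± 0.10). For these the cocaine library numbered 1 was the highest of all IP libraries. Zfp330, known as a nucleolar protein, had 52.3, 66.5 and 44.9 CPM against 30.3 to 46.9 CPM, so that the cocaine library numbered 3 overlapped the yoked library numbered 1 (0.63 ± 0.12). Zfp286 (0.50 ± 0.13) and Zfp938 (0.47 ± 0.11) followed without overlap.

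**Figure D2:**
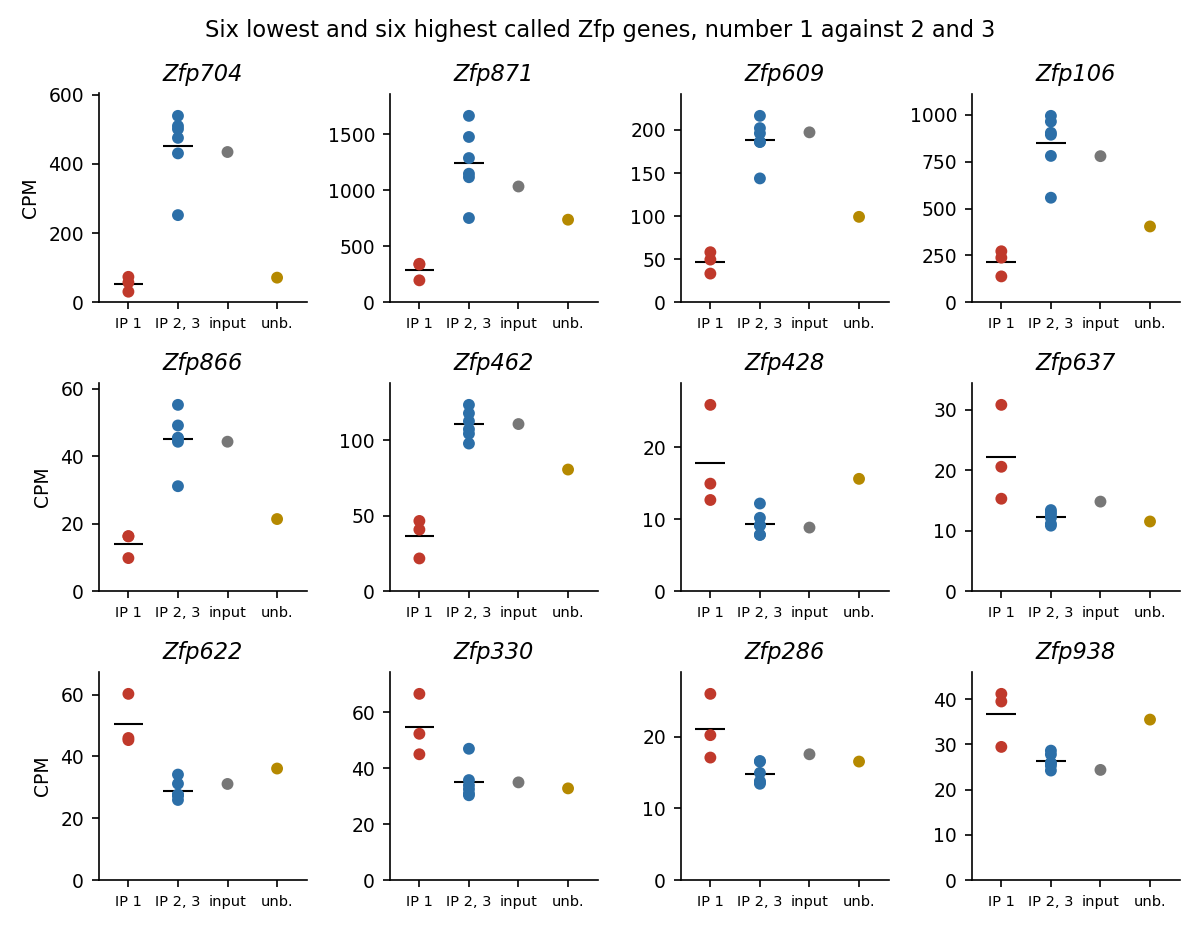
CPM (linear axis from 0) of the 6 called Zfp genes with the lowest and the 6 with the highest log2 fold change of number 1 against numbers 2 and 3; each point is a library, with IP libraries numbered 1 in red, the other IP libraries in blue, input in grey and unbound (unb.) in yellow, and lines mark means. In Zfp704 the red points lie at 30.3 to 73.3 CPM and the blue at 252 to 539 CPM.

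By role, the 26 genes among the 211 on a list of Zfp genes with known functions gave 15 lower, 1 higher and 10 without a call. Of the 211 genes 44.1% were lower and 7.11% higher, and of all genes tested 27.7% and 27.6%. Differences of the roles from these shares were not tested. Of 3 genes listed for ribosomes and translation, Zfp593 was under the count minimum and the other 2 were called, in opposite directions. Zfp622 was higher. Zfp598, the ubiquitin ligase that marks collided ribosomes, was lower at 8.59, 9.59 and 10.04 CPM against 13.2 to 16.1 CPM (-0.63 ± 0.12, edgeR adjusted p = 0.000636). Among 14 transcription factors without a KRAB box, 8 were lower and none higher. They included Zfp292 (-1.10 ± 0.12), Zfp536, a brake on neuronal differentiation (-1.42 ± 0.16), and Zfp148 (-0.61 ± 0.10). Zfp281 (-0.19 ± 0.11), Zfp143 (-0.34 ± 0.15) and Zfp410, the activator of Chd4 (0.11 ± 0.14), did not pass. Of 4 genes listed for neurons, Zfp110 was under the count minimum and the other 3 were lower. Zfp365 stood at -0.54 ± 0.11 and Zfp369, a paralog of the p75 receptor partner Zfp110, at -0.92 ± 0.13. Zfp189, a KRAB gene studied in prefrontal responses to stress, stood at -0.63 ± 0.15. Zfp189 had 10.2, 7.07 and 8.04 CPM in number 1 and 9.61 to 15.9 CPM in the other IP libraries, which overlap through the cocaine library numbered 3. The ubiquitin ligase Zfp91 (-0.22 ± 0.10), the spindle protein Zfp207 (-0.18 ± 0.10) and the provirus silencer Zfp809 (-0.19 ± 0.14) did not pass.

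The KRAB class and the rest gave similar counts in this comparison: 42 of 95 KRAB genes were lower and 8 higher, with a median of -0.19, and 51 of 116 others lower and 7 higher, with a median of -0.28. The number of fingers and the log2 fold change had a Pearson r of -0.01 over the 211 genes, given as a description. Genes of a chromosomal run did not all move one way: of 10 runs with 4 or more of the genes, 5 held calls in both directions. In the chromosome 17 run Zfp871 lay at -2.11, while the median of its 10 genes was -0.18 and the highest lay at 0.40. A run of 4 KRAB genes on chromosome 8 (Zfp709, Zfp882, Zfp617 and Zfp961) had 2 lower, none higher and a median of -0.54.

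Among the partners of KRAB proteins, 5 of 19 listed genes rose in number 1 and 4 fell (26.3% and 21.1%), with a median of 0.04. Of all genes tested 27.6% rose and 27.7% fell. Trim28, which KRAB boxes bind, stood at 72.8 CPM against 61.4 CPM (0.24 ± 0.10, edgeR adjusted p = 0.0610), and Setdb1 at 20.2 against 19.7 CPM (0.02 ± 0.13); neither passed. Among those that passed, the histone deacetylase gene Hdac2 was higher (0.74 ± 0.10), and Cbx5, for a heterochromatin protein (-1.08 ± 0.12), and Dnmt3a, a DNA methyltransferase (-2.63 ± 0.15), were lower. In other zinc finger families, 19 of 39 tested Zbtb genes were lower and 4 higher, with a median of -0.34. Of 15 Klf genes 8 were lower and 2 higher (median -0.36), of 11 Zkscan genes 6 lower and 1 higher (median -0.82), and of 9 Zscan genes 5 lower and none higher (median -0.29). Lower calls made up 48.7% of the Zbtb, 53.3% of the Klf, 54.5% of the Zkscan and 55.6% of the Zscan genes. That share was 44.1% of the Zfp genes and 27.7% of all genes tested. Differences of these families from the Zfp genes were not tested.

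Exon length went with the fold change. Of the 25 Zfp genes with under 3 kb of exon, 6 (24%) were higher and 4 (16%) lower in number 1, with a median of 0.17. Among well-counted genes of any name at that length, 71.9% were higher and 6.45% lower. Of the 50 Zfp genes with 7.5 kb or more, 1 (2%) was higher and 32 (64%) lower, with a median of -0.56. There, 17.9% of well-counted genes of any name were higher and 46.9% lower. Well-counted genes of any name showed the same order, from a median of 0.54 for 1937 genes under 3 kb to -0.23 for 2416 genes of 7.5 kb or more. In each of 4 length classes the Zfp median was the lower: for 3 to 5 kb it was -0.15 against 0.21, and for 5 to 7.5 kb -0.29 against -0.00. With each library's trend on length removed, 92 of the Zfp genes were lower and 18 higher, with a median of -0.21. Of genes of any name, 7944 were called in either direction, with a median of 0.03 over all genes tested. The genes tested here were the 91.6% of the 16417 with an exon length, and the 7944 calls were not split by direction. Pearson's r over the 211 genes was -0.42 with log2 exon length and -0.46 with log2 mean CPM, as descriptions over genes that share the same 9 libraries.

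**Figure D3:**
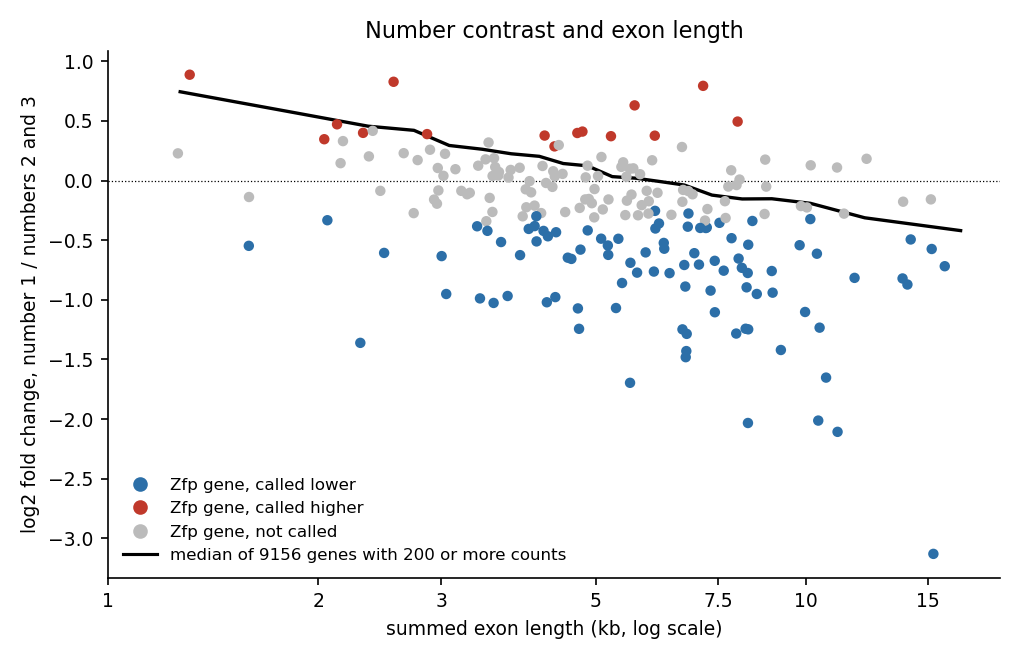
Log2 fold change of number 1 against numbers 2 and 3 for each of the 211 Zfp genes, by summed exon length in kb (log axis), coloured by call; the black line joins the medians of 9156 genes with 200 or more counts in each IP library in 20 length classes of equal size. Most points lie under the line, and Zfp704 lies lowest at -3.13.

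Markers of other RNA and cell types moved with the number as well. The summed level of 8 nuclear noncoding RNAs (Malat1, Neat1 and others, none at 0 in all libraries) was 211 to 423 CPM in the libraries numbered 1 and 2432 to 7500 CPM in the other IP libraries; all 8 fell, with a median of -3.94. Within each set its lowest value was in the cocaine group, as for Zfp704. The layer 5 markers ran from 1407 to 1641 CPM against 748 to 975 CPM, with 12 of 14 higher, and the 10 astrocyte markers from 1051 to 1442 against 2357 to 2940 CPM, with 7 lower. Input held 5270 CPM of the nuclear RNAs, 793 of the layer 5 markers and 2545 of the astrocyte markers. Each lay within the range of the IP libraries numbered 2 or 3. Unbound held 14717, 784 and 2238 CPM in the same order. The part of these markers in the Zfp values was not tested. In such bulk RNA, fewer cells of a type and less RNA per cell cannot be told apart.

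No Zfp gene passed the test between treatments. Cocaine over saline, yoked over saline and cocaine over yoked each gave 0 of 211 by edgeR (adjusted p 0.972 or more throughout), where 0% of the 16417 genes passed, and 0 by DESeq2. At an unadjusted p below 0.05 the counts were 0, 1 and 2, where 1.02%, 0.402% and 1.11% of genes tested did so. With the replicate number as a block they were 28, 2 and 34 (13.3%, 0.948% and 16.1%), against 12.3%, 3% and 18.3% of all genes, and the lowest adjusted p among the Zfp genes were 0.377, 0.9996 and 0.130. The 3 comparisons share groups and are given side by side.

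The lowest log2 fold changes of cocaine against saline were those of 3 genes that also fell in number 1. Zfp704 had 238 ± 200 CPM (SD, n = 3) in cocaine and 344 ± 249 in saline, Zfp871 687 ± 463 and 985 ± 586, and Zfp106 492 ± 327 and 709 ± 411, with log2 fold changes of -0.52, -0.51 and -0.51. The spread within each group exceeds these differences, but it includes the difference between replicate numbers. Within each number, the levels of Zfp704 and Zfp871 given above were lower in cocaine than in saline. At the other end stood Zfp868 (0.39), Zfp787 (0.38) and Zfp330 (0.38). In cocaine against yoked the lowest were Zfp871 (-0.66), Zfp704 (-0.64) and Zfp106 (-0.52) and the highest Zfp428 (0.58), Zfp637 (0.52) and Zfp277 (0.49). Zfp277 had 20.03, 17.4 and 17.6 CPM in cocaine and 14.1, 13.6 and 12.02 CPM in yoked libraries, without overlap (edgeR adjusted p = 0.972). In yoked against saline the lowest were Zfp945 (-0.38), Zfp383 (-0.32) and Zfp65 (-0.32), and the highest Zfp449 (0.32), Zfp811 (0.26) and Zfp395 (0.25). Zfp189 stood at 9.75 ± 2.76 CPM in cocaine, 12.3 ± 1.87 in saline and 12.5 ± 4.04 in yoked libraries.

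As a group, the 211 genes had a median log2 fold change of -0.07 in cocaine against saline, with 65.9% below 0, where 46.6% of all genes were. The median was 0.01 in yoked against saline and -0.05 in cocaine against yoked. Within numbers 1, 2 and 3 the cocaine minus saline medians were -0.16, -0.00 and -0.13. The 9309 genes that met the same count minimum had medians of -0.04, 0.02 and -0.00. The Zfp difference was thus near 0 between the libraries numbered 2. Cocaine was below saline in all 3 numbers for 70 of the genes (33.2%, against 17.5% of all genes) and above in all 3 for 24 (11.4%, against 17.6%). Cocaine was below yoked in all 3 for 46 (21.8%, against 18.7%) and above for 20 (9.48%, against 17.4%). Yoked was below saline in all 3 for 32 (15.2%, against 13.2%) and above for 35 (16.6%, against 16.3%). Without the cocaine library numbered 1 the cocaine against saline median became 0.03 and the cocaine against yoked median 0.03, in groups whose numbers no longer match. Without all 3 libraries numbered 1, an alternative chosen after seeing the data, they were -0.06 and -0.03, and with the replicate number as a block -0.07 and -0.05. Groups that did not overlap in CPM were 7 genes above and 7 below for cocaine against saline, where 2.78% and 2.66% of all genes did so.

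**Figure D4:**
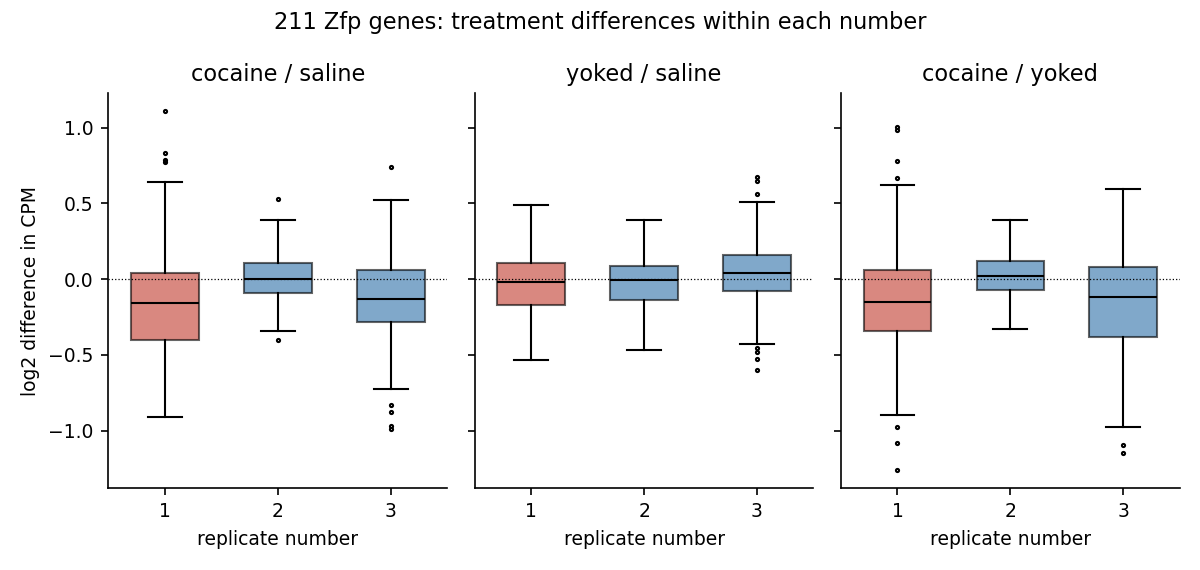
Log2 difference in CPM (0.5 added) between treatments within each replicate number for the 211 Zfp genes; boxes span the quartiles with the median line, whiskers reach 1.5 times the box, and points lie beyond. Cocaine minus saline has medians of -0.16, -0.00 and -0.13 in numbers 1, 2 and 3, and yoked minus saline lies within 0.04 of 0 in each.

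Against input, the Zfp genes were neither enriched nor depleted by a set amount. None was at least 2-fold higher or lower in all 3 saline IP libraries, where 0.0742% and 0.0445% of genes were. The median log2 ratios were -0.17, 0.05 and 0.05 for the libraries numbered 1, 2 and 3, against 0.06, -0.01 and 0.01 for all genes. In library 1 alone 18 of the genes (8.53%) were at least 2-fold lower, where 11.3% of genes were, and in libraries 2 and 3 none. Zfp704 had log2 ratios of -2.93, 0.14 and 0.19, and Zfp609 of -1.998, 0.01 and 0.02. Zfp787 was below input in each, with 6.63, 8.425 and 7.65 CPM against 10.8 CPM. Zfp942 was above it in each, with 15.96, 11.8 and 11.3 CPM against 9.26 CPM (mean log2 ratio 0.47). Zfp367 (0.47) and Zfp759 (0.43) were the other highest. There is 1 input library, so the ratios have no replicate of their denominator.

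Against the unbound RNA the 2 classes differed in their counts. None of the 211 genes was at least 2-fold higher or lower in all 3 cocaine IP libraries, where 0.399% and 2.21% of genes were. Below unbound in all 3 libraries, by any amount, were 42 of 95 KRAB genes (44.2%) and 25 of 116 others (21.6%), where 25.7% of all genes were. Above it in all 3 were 10 KRAB genes (10.5%) and 23 others (19.8%), where 31.8% were. The KRAB medians for libraries 1, 2 and 3 were -0.44, -0.05 and -0.17, and those of the other genes -0.36, 0.16 and 0.14. In saline IP over input the classes stood the other way, with 23 KRAB genes above in all 3 (24.2%) and 5 below (5.26%), and 12 others above (10.3%) and 29 of 116 below, where 18.9% of all genes were above and 17.6% below. These comparisons share no library. The class difference was not tested. Reads without a unique alignment were 28.3% of entries in the unbound library and 35.8% to 47.0% in the cocaine IP libraries. The part of this in the class counts was not tested.

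**Figure D5:**
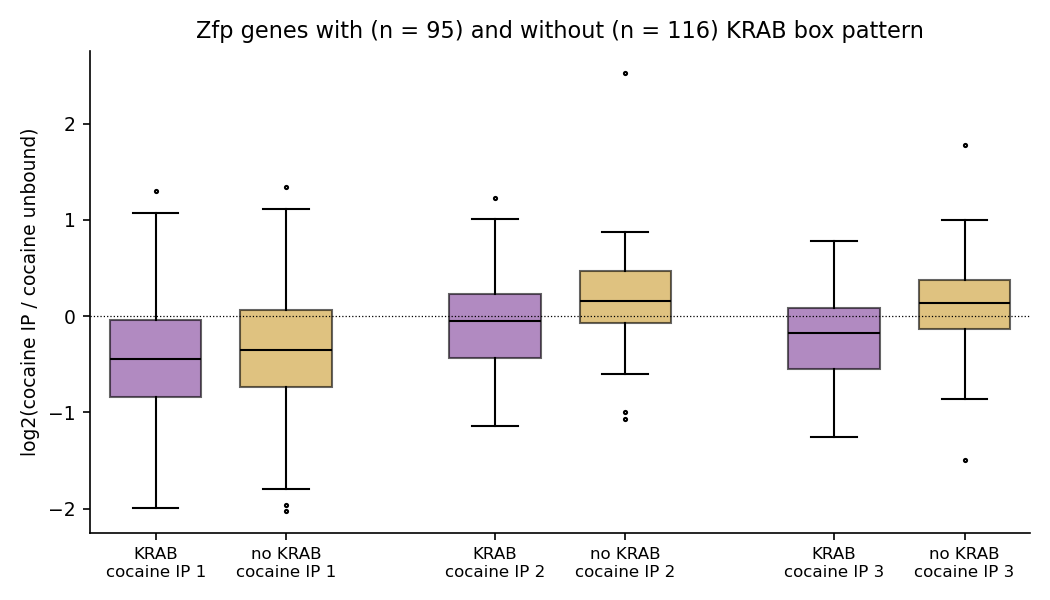
Log2 ratio of each cocaine IP library to the 1 cocaine unbound library for Zfp genes with and without a KRAB box pattern; boxes span the quartiles with the median line, whiskers reach 1.5 times the box, and points lie beyond. The KRAB median is below the other median in each library: -0.44 and -0.36, -0.05 and 0.16, and -0.17 and 0.14.

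At a 1.5-fold limit, 8 genes were lower than unbound in all 3 cocaine IP libraries and 1 was higher (6.35% and 3.89% of genes). Zfp26, a KRAB gene with 22 fingers, had 33.3, 59.8 and 46.7 CPM against 108 CPM in unbound (mean log2 ratio -1.31). Zfp367, without a KRAB box, had 20.7, 26.4 and 18.4 CPM against 50.1 CPM (-1.28). Zfp458, of the KRAB class, had 7.48, 15.6 and 12.7 CPM against 24.996 CPM (-1.19). The 5 others were Zfp40, Zfp799, Zfp943, Zfp738 and Zfp758, all of the KRAB class, named after their values were seen. On chromosome 17, 12 of the 21 genes were below unbound in all 3, with a median of -0.45. On chromosome 7 it was 11 of 56 (median 0.01), on chromosome 8 it was 6 of 19 (-0.06) and on chromosome 6 it was 4 of 14 (0.04), where 25.7% of all genes were; the difference between chromosomes was not tested. Zfp444 was the gene above the limit, with 16.02, 16.3 and 15.5 CPM against 8.67 CPM (0.81), and Zfp954 followed at 0.74. Zfp704 had the highest mean ratio, 1.001, from values of -1.30, 2.53 and 1.77 that differed in sign.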

How the data were processed

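The authors deposited raw counts per gene symbol for 11 TRAP-seq libraries, made with STAR 2.0.0e on mm10 and HTSeq, per the submitters' processing notes; annotation and strand setting are unknown here. Entries for reads given to no gene, and 1 entry named unknown (2 counts in all), were left out of library sizes; reads given to no gene made up 47.5% to 55.1% of entries. Depth was 20926712 to 53862653 gene counts, and counts include PCR copies. The lowest IP count of each Zfp gene had a median of 548 and a minimum of 201. For genes near that minimum, counting error is part of the spread between libraries. The 9 IP libraries were fitted in edgeR 4.0.16 (R 4.3.3; TMM, filterByExpr, robust quasi-likelihood, Benjamini-Hochberg over 16417 genes, threshold 0.05) as 3 group means, or as group plus number for the number comparison. CPM are TMM-scaled over 11 libraries. Fraction ratios are log2 CPM per IP library (prior count 2, mean of at least 1 CPM). Treatments were also compared with DESeq2 1.42.0. On simulated counts for 16417 genes, 56.7% of 1.5-fold and 95.5% of 2-fold changes between cocaine and saline were recovered, with 9 false calls. The simulated libraries held no difference between replicate numbers, and their spread was estimated with the number in the model. The treatment fit left the number out, so these shares do not give its power on the real counts. Same-numbered libraries deviated together (correlation 0.376 to 0.794 in all 9 pairs) and share an index sequence in the labels. The numbers were taken as pairs on these grounds, and the labels do not say what the number marks. The correlations of the 18 pairs with different numbers ran from -0.740 to 0.621, so numbers 2 and 3 were not separated by them. Positions, exon lengths and the translated sequences searched for C2H2 and KRAB patterns come from GENCODE M21 on GRCm38; promoters from RefSeq. Members and lists were chosen with earlier results of these data known. Named genes were the 5 highest in level, those nearest the count minimum, the 3 highest and lowest per treatment and fraction comparison, the 6 highest and lowest called by number, and genes with listed roles. Alternatives were DESeq2, no filter, the replicate block, length-trend removal, Rn45s left out, other priors, scalings and folds, and each library left out.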

Additional observations from a re-analysis of the deposited data

How the results depend on the processing

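With the replicate number as a block, no treatment comparison gained a call among the Zfp genes (0 higher and 0 lower in each, also with the length trend removed), and the medians were -0.07 for cocaine over saline, 0.01 for yoked over saline and -0.05 for cocaine over yoked. For number 1 against numbers 2 and 3, leaving out 1 library gave 9 to 16 higher and 83 to 90 lower genes, with medians of -0.28 to -0.20; the 9 came without the saline library numbered 2. DESeq2 gave 15 and 103. Leaving out 1 library moved the median of cocaine against saline between -0.17 and 0.03, of yoked against saline between -0.08 and 0.08, and of cocaine against yoked between -0.14 and 0.03, with 0 calls throughout. Without the 3 libraries numbered 1, an alternative chosen after seeing the data, the medians were -0.06, 0.02 and -0.03, again with 0 calls. For cocaine IP over unbound, the 1.5-fold limit gave 1 higher and 8 lower, and leaving out 1 library 0 to 1 higher and 0 to 2 lower; the cause is the lower limit or the fewer libraries. edgeR over all 11 libraries called 0 of the Zfp genes in either fraction comparison (0 and 18 at an unadjusted p below 0.05, and of 18070 genes 105 and 1957). A minimum of 500 counts left 117 genes and one of 100 gave 254. Of the alternatives for counts of genes, 6 moved a count by over 1.5 times and 134 did not. Most of the 134 were treatment or fraction counts that were 0 in the main setting and stayed at 0. With 1 input and 1 unbound library, the fraction ratios are limited by those single libraries, and the unbound library, the shallowest, held under 200 counts for 34 of the genes.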
